A study of Mus musculus with 21 samples.

Results

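Of 186824 H3K4me1 regions with measured levels, 19140 (10.2%) lay in intergenic DNA more than 100 kb from the nearest annotated start site and were less than 10000 bp wide. They were chosen by the class, distance and width that the authors' table gives for each region, and by no measured H3K4me1 value. A further 60 regions met the class and distance limits but were too wide. The distances of the members ran from 100009 bp to 2065 kb, with a median of 197 kb, and 9739 lay at 100 to 200 kb, 7002 at 200 to 500 kb and 2399 beyond 500 kb.

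H3K4me1, monomethylation of lysine 4 of histone H3, marks enhancers, the regulatory elements that raise transcription of genes which can lie far away along the chromosome. MLL3 and MLL4 (genes Kmt2c and Kmt2d) are related methyltransferases that place most of this mark at enhancers, in large complexes that also carry other activities, and H3K27 acetylation marks the enhancers that are active. Gene deserts are long stretches without protein-coding genes, and many flank developmental regulators, whose distant enhancers they hold. Mouse embryonic stem cells kept in LIF and 2 kinase inhibitors are in the naive state of the preimplantation embryo, and after withdrawal they pass to the formative state, which precedes lineage priming and comes with wide exchange of active enhancers.

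The series holds 21 CUT&RUN libraries of mouse embryonic stem cells. CUT&RUN maps a chromatin mark by letting an antibody guide a nuclease to it, so that the fragments cut free can be sequenced. The 16 H3K4me1 libraries form 8 groups of 2, made of 4 genotypes in 2 states: naive cells in LIF2i, and formative cells 63 hours after LIF2i withdrawal. The genotypes were wild type, MLL3KO_MLL4fl (MLL3 knocked out, MLL4 with floxed alleles; the floxed line below), MLL3KO_MLL4KO (both knocked out; DKO) and MLL3CD_MLL4CD (known from the study as catalytically dead for both enzymes; dCD). No group carries a drug or a Cre agent in the labels. The floxed line, the control of DKO, lacks MLL3 as DKO does, and wild type is the control of dCD. Wild type and dCD carry the cell line label R1 and the floxed line and DKO carry none, so loss of MLL3 and line of origin cannot be told apart between the floxed line and wild type. The labels do not say whether a mutant line is 1 clone or several. They name catalogue number ab8895 for the H3K4me1 antibody and the protocol names ab4729, which was not resolved. The 1 IgG and 4 MLL4 libraries were not analysed here.

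The deposited table holds 1 pooled column per group, so a difference between groups has no replicate error of its own. The exception is the authors' deposited comparison of wild-type formative with naive cells, which carries a false discovery rate (FDR) for each region. Below, "gained" and "lost" mean a deposited FDR under 0.05 with more or less H3K4me1 in formative cells. Elsewhere differences are on a log2 scale and counted where they reach 2-fold, with no test, and the share of all regions is given beside each comparison. Amounts are normalized reads per region, recovered from the deposited log2 levels. Member counts do not replicate a group: all regions of a group share its 2 libraries. The labels do not say whether the 2 libraries of a group came from separate cultures, so the deposited FDR may reflect only technical spread. A lower amount in a bulk sample can come from fewer cells with the mark or from less mark per cell, which cannot be told apart.

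The label of the class held against the gene annotation for most members. In GENCODE vM21, 95.2% of them had no protein-coding start within 100 kb, against 22.1% of all regions, and 17.4% had none within 500 kb, against 2.68%. The median number of coding starts within 500 kb was 3 for the members and 9 for all regions. Exceptions remained: 697 members (3.64%) touched the body of an annotated coding gene, and 40.1% had a long noncoding RNA start within 100 kb, against 60.4% of all regions. The members were poorer in CpG, the dinucleotide that can be methylated, with a median of 8.96 per kb against 11.7, and their median G+C content was 44.4% against 46.2%. They were also narrower, with a median width of 1566 bp against 1947 bp. Their median amount in naive and formative wild type was 26.2 and 30.9 reads, lower than the 39.2 and 37.7 of all regions. In the floxed line the members' medians were 23.4 and 26.3 reads, in DKO 18.2 and 18.3, and in dCD 19.1 and 18.3. Only in the control lines was the formative median higher than the naive one by more than 2 reads.

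The middle 300 bases of 8 members are printed to show the kind of DNA involved: 3 of the 4 largest gains in wild type, the second largest loss, a pair among the lowest in DKO in both states, a member among the lowest in dCD in both states, and a member near the pluripotency gene Sall1. They were picked among members with at least 32 reads in the higher group of each comparison used. They come from the RefSeq sequence of GRCm38 (mm10, the build of the table), plus strand, 5′ to 3′. Each is named after the nearest gene in the authors' table. Capitals mark CpG dinucleotides and matches, on either strand, to the AP-1 motif TGAGTCA or the SOX motif ACAATGG. The windows are chr3:62800339-62800638 (Gpr149), chr10:37715725-37716024 (4930591E09Rik), chr17:59547374-59547673 (Nudt12), chr14:82757378-82757677 (Gm32455), chr14:81127301-81127600 (Olfm4), chr4:121735614-121735913 (Gm12887), chr8:29977812-29978111 (4933433F19Rik) and chr8:89210483-89210782 (Sall1).
Gpr149: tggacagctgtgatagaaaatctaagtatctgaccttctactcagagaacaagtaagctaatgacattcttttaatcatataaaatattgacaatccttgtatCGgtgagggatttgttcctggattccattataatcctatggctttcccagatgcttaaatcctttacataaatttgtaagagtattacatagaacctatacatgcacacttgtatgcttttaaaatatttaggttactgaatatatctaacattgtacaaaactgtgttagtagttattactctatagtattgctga
4930591E09Rik: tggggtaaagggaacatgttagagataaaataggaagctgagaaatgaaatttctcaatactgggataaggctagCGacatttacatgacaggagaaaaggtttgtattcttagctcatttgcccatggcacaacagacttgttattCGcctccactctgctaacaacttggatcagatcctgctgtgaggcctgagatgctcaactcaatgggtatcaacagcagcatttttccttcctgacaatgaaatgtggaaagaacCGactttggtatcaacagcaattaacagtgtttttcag
Nudt12: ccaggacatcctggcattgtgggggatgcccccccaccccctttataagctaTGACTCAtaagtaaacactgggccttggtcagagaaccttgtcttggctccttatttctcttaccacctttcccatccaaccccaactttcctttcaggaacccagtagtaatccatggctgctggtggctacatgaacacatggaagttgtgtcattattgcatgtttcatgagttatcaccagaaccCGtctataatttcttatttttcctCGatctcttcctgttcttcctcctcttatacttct
Gm32455: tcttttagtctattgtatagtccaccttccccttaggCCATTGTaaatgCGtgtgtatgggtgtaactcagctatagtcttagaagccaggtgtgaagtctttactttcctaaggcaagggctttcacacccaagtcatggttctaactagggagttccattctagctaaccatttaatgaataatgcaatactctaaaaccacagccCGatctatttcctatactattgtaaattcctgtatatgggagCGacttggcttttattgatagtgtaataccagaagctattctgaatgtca
Olfm4: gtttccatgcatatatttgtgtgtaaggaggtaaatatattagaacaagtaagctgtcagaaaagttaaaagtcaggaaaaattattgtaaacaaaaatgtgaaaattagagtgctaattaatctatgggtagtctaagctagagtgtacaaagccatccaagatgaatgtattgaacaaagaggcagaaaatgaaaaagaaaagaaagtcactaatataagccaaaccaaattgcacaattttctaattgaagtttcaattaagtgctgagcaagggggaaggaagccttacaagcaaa
Gm12887: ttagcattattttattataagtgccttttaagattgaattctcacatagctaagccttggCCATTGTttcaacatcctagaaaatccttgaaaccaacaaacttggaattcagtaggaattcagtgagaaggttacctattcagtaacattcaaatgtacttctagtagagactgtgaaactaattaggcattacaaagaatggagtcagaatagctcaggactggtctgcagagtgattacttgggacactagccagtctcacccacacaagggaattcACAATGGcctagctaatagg
4933433F19Rik: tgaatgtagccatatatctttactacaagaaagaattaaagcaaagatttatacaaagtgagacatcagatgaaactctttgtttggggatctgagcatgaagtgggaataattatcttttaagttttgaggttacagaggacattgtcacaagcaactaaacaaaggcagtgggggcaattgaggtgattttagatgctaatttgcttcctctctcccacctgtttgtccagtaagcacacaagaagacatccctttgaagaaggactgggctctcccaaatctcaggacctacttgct
Sall1: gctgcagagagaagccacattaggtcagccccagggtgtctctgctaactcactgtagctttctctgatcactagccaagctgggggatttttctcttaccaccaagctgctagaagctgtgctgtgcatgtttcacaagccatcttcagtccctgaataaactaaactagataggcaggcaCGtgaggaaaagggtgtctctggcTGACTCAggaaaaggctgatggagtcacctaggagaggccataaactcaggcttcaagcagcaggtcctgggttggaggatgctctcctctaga

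These windows were poor in CpG. Those of Olfm4, Gm12887 and 4933433F19Rik held 0, those of Gpr149 and Sall1 held 1, that of Nudt12 held 2, and those of 4930591E09Rik and Gm32455 held 3. An AP-1 match stood at position 53 of the Nudt12 window and at position 207 of the Sall1 window, counted from the 5′ end. SOX matches stood at position 38 of the Gm32455 window and at positions 61 and 281 of the Gm12887 window. Of the 12 motifs searched, no other matched in these 8 windows. A match is a run of letters, not a measured binding site.

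The largest gain was a 2213 bp region 195 kb upstream of Gpr149, an orphan G protein-coupled receptor gene (chr3:62799382-62801594). It held 4.3 reads in naive and 79.9 in formative wild type, 6.1 and 64.2 in the floxed line, 9.8 and 9.9 in DKO, and 11.7 and 16.4 in dCD. The 2 formative control values stood far above the other 6 values, and the wild-type difference was 3.93 (deposited FDR 1.41e-12). The member 460 kb upstream of 4930591E09Rik (chr10:37715417-37716332), whose nearest coding gene in GENCODE was Marcks, a substrate of protein kinase C, followed the same order. Its amounts were 2.1 and 33.1 reads in wild type, 7.1 and 31.0 in the floxed line, 4.6 and 5.6 in DKO, and 8.1 and 8.2 in dCD. The member 534 kb upstream of Nudt12 (chr17:59546821-59548226) held 2.0 and 34.7 reads in wild type, 4.8 and 36.1 in the floxed line, 5.0 and 4.2 in DKO, and 7.1 and 5.9 in dCD. In each of these 3 members, neither mutant line passed 16.4 reads in the formative state.

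The remaining members with printed sequence followed other orders. The Gm32455 member (chr14:82756890-82758165), 1318 kb downstream of that gene, fell from 42.6 to 4.3 reads in wild type and held 31.3 and 9.0 in the floxed line. It held 11.1 and 15.7 in DKO and 20.1 and 14.6 in dCD, so the naive control values were the high ones. The Olfm4 member (chr14:81126215-81128685), 1127 kb downstream, held 51.5 and 78.1 reads in the floxed line but 3.8 and 6.7 in DKO. Wild type held 18.8 and 70.6 there, and dCD 11.9 and 16.4. The Gm12887 member (chr4:121734847-121736680) was high in both states of the controls, with 36.4 and 50.6 reads in wild type and 54.2 and 49.3 in the floxed line. DKO held 5.4 and 4.3 and dCD 17.5 and 8.5. The member 590 kb upstream of 4933433F19Rik (chr8:29975357-29980566) held 115.2 and 210.1 reads in wild type, 74.0 and 131.9 in the floxed line, 15.6 and 18.6 in DKO, and 16.9 and 25.8 in dCD. All 4 mutant values of this member stood below all 4 control values. The member 166 kb upstream of Sall1, a zinc finger factor of the pluripotency network (chr8:89210123-89211142), rose from 7.7 to 53.3 reads in wild type (deposited FDR 1.86e-06) and held 12.3 and 37.7 in the floxed line. DKO held 6.7 and 7.3 and dCD 12.5 and 20.9.

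**Figure D1:**
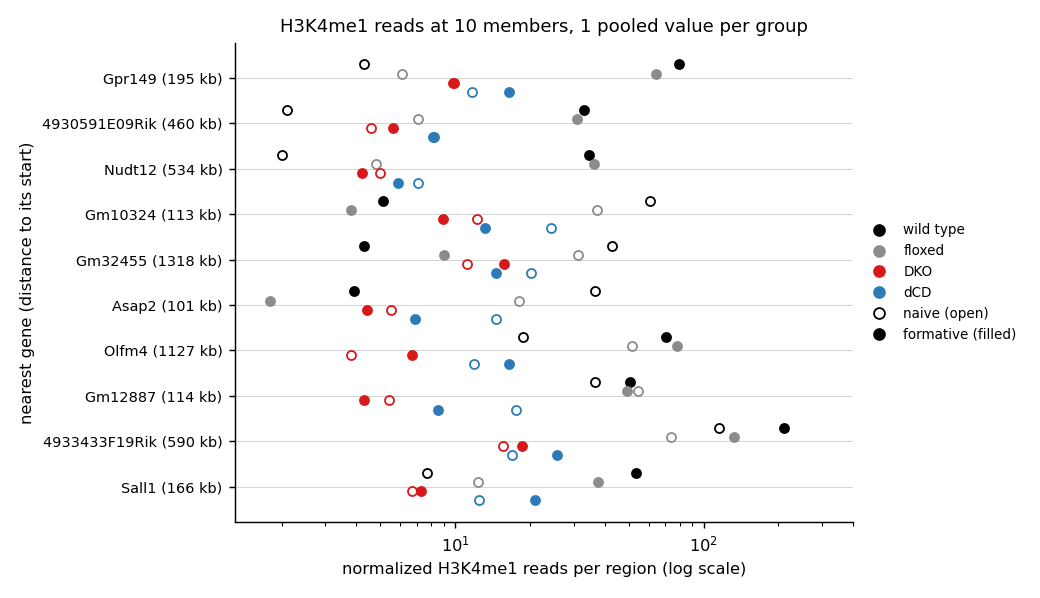
Normalized H3K4me1 reads (log axis) at 10 members, named by nearest gene with the distance to its start; each point is the pooled value of 1 group, open for naive and filled for formative, coloured by genotype. In the rows of the largest gains, the filled wild-type and floxed points stand apart from the rest (Gpr149 at 79.9 and 64.2 reads), and at 4933433F19Rik all DKO and dCD points lie at 15.6 to 25.8 reads.

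Gains outnumbered losses among the members in wild type. At the deposited FDR, 3710 members (19.4%) were gained and 1577 (8.24%) lost, beside 9.82% and 10.5% of all regions. By size alone, 4865 members (25.4%) were at least 2-fold higher in formative wild type, against 11.1% of all regions, and 2095 (10.9%) were at least 2-fold lower, against 11.4%. The median wild-type difference was 0.28 over the members and -0.03 over all regions. The share of gained members was above that of all regions on 20 of the 20 chromosomes other than Y. Among members with at least 32 reads in the higher state, 24.6% were higher and 11.7% lower, against 9.71% and 11.4% of all regions with as many reads. A further 6833 members (35.7%) were stable, with FDR above 0.2 and a difference under 0.5. The gained members were the poorest in CpG, with a median of 6.44 per kb against 8.64 in the lost and 11.2 in the stable members, and they lay farther out, at a median of 231 kb against 185 and 183 kb. The gained members had median amounts of 14.4 reads in naive and 48.8 in formative wild type. The lost members went from 55.9 to 18.8 reads.

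The other leading gains and losses were as large. The member 122 kb upstream of Rgs18, a regulator of G protein signalling, rose from 4.3 to 69.5 reads in wild type (chr1:144896215-144898089, deposited FDR 3.98e-11) and held 4.6 and 7.2 in DKO. The member 699 kb downstream of Cbln2, a cerebellin that organizes synapses, rose from 2.2 to 36.5 reads (chr18:87410793-87412056, deposited FDR 3.61e-06). Among the losses, the Gm10324 member at chr13:66225014-66227071 fell from 60.9 to 5.1 reads (deposited FDR 3.12e-08), and the member 101 kb upstream of Asap2, an Arf GTPase-activating protein, fell from 36.5 to 3.9 reads (chr12:21010008-21010853, deposited FDR 5.89e-05). The members leading near 5730507C01Rik and 1700030C10Rik, at chr12:18861955-18863159 and chr12:20117845-20119498, fell from 35.9 to 4.0 and from 39.2 to 4.3 reads. Of the 5 leading losses, 4 lay on chromosomes 12 and 13, and of the 5 leading gains none did.

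Of 108 members nearest to naive pluripotency genes, 5 (4.63%) were gained and 13 (12%) lost, and of 120 nearest to core pluripotency genes, 25 (20.8%) were gained and 2 (1.67%) lost. Beside them stand 19.4% gained and 8.24% lost over all members, and the difference between the lists was not tested. Tfcp2l1, a factor of the naive network, had 12 members, of which 5 were lost and 0 gained. Its member 114 kb downstream (chr1:118740998-118741960) fell from 26.6 to 9.6 reads (deposited FDR 0.0302). Esrrb had 6 members, with 0 gained and 0 lost, and Nr5a2, an orphan nuclear receptor, had 32, with 0 gained and 2 lost. Klf5 ran both ways, with 3 gained and 5 lost of 34. Among the core genes Sall1 had 77 members, the most of any gene, with 18 gained and 1 lost, so it supplied most of the gains of that list.

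Genes of the formative and primed states also ran both ways, with 15 gained (16.1%) and 14 lost (15.1%) of 93 members. Over all members the shares were 19.4% and 8.24%. Sox11, a SOX factor of neural progenitors, had 10 of its 13 members gained and 0 lost, with a median wild-type difference of 1.95. Its member 204 kb upstream (chr12:27546233-27547995) held 9.0 and 61.8 reads in wild type, 10.7 and 71.5 in the floxed line, 11.5 and 16.5 in DKO, and 9.1 and 24.3 in dCD. Sall3 went the other way, with 12 of its 42 members lost and 0 gained. Its member 270 kb upstream (chr18:81256522-81258379) fell from 51.1 to 11.1 reads (deposited FDR 0.00028) and held 10.9 and 7.6 in DKO. Otx2, a homeobox factor of the formative state, had a single member, which was neither gained nor lost.

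Near neural transcription factors and synaptic genes, more members were gained than lost, as over all members (19.4% and 8.24%). Of 352 members nearest to neural transcription factors, 75 (21.3%) were gained and 25 (7.1%) lost, close to the shares of all members. Nr2f1, an orphan nuclear receptor of the forebrain, had 15 gained and 0 lost of 30, Zic1 had 8 and 0 of 12, and Zic4 had 5 and 0 of 6. The Zic4 member 142 kb downstream (chr9:91510507-91512012) held 5.5 and 46.7 reads in wild type, 6.7 and 46.7 in the floxed line, 10.7 and 14.6 in DKO, and 8.1 and 13.9 in dCD. En1, a midbrain homeobox factor, was an exception, with 0 gained and 3 lost of 10. Of 380 members nearest to synaptic and cell adhesion genes, 110 (28.9%) were gained and 22 (5.79%) lost. Of 202 nearest to classical cadherins and non-clustered protocadherins, 48 (23.8%) were gained and 12 (5.94%) lost. The differences of these lists from all members were not tested. The Slitrk1 member 477 kb downstream (chr14:108436840-108437762) rose from 1.2 to 27.3 reads in wild type (deposited FDR 0.000113) and held 1.8 and 4.4 in DKO. The Cdh9 member at chr15:16490809-16491930 rose from 3.3 to 45.0 reads (deposited FDR 1.34e-06) and held 7.5 and 8.5 in DKO and 7.7 and 6.7 in dCD.

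Beside the remaining lists stand 19.4% gained and 8.24% lost over all members. Streak and mesoderm genes had 11 gained (22%) and 8 lost (16%) of 50 members. Tbx18, a T-box factor, had 3 lost of 11. Endoderm genes had 7 members with 1 gained, the Foxa2 member at chr2:148205937-148207199. It held 5.9 and 54.2 reads in wild type, 7.3 and 36.0 in the floxed line, 3.1 and 10.0 in DKO, and 10.3 and 8.5 in dCD. FGF, WNT, BMP and TGF-beta ligands and antagonists had 10 gained (10.5%) and 5 lost (5.26%) of 95. The Dkk2 member at chr3:132248604-132251995 rose from 15.7 to 88.1 reads (deposited FDR 3.06e-08). Dkk2 is a secreted WNT antagonist. Trophoblast genes had 2 gained (5.26%) and 3 lost (7.89%) of 38, and housekeeping genes had a single member, near Ywhaz, which was lost. A nearest gene is a matter of position, and which gene a region acts on was not measured.

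Members often stood in company. Joined wherever the gap to the next was at most 50 kb, the members formed 4261 chains, of which 1645 were single members and 480 held 10 or more. These 480 chains held 9229 members (48.2%), with a median length of 169 kb. They held 1514 of the 3710 gained members and 919 of the 1577 lost members. In 199 of them 3 or more members were gained and in 112 3 or more were lost, and 17 chains met both conditions. Long chains can reach such counts at the shares of all members, and no expected number was worked out. Chains were not formed over all regions, so whether gains or losses gather in chains was not tested. In 25 chains no member was gained or lost.

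The chain with the most gains lay on chromosome 2, nearest to Chd6, a chromatin remodeller (chr2:161212271-161514296). Of its 38 members, 25 were gained and 0 lost, and 32 were at least 2-fold higher in the formative floxed line but 3 in DKO and 0 in dCD. Its median amounts were 14.4 and 50.1 reads in wild type, 12.3 and 37.8 in the floxed line, 16.2 and 20.3 in DKO, and 19.2 and 21.1 in dCD. The chain nearest to Efnb2, an ephrin ligand (chr8:8217927-8566016), had 25 of 45 members gained and 0 lost. A pair of chains near Zfp608, a zinc finger gene (chr18:55362335-55835971 and chr18:55092928-55292037), had 23 of 31 and 19 of 20 gained and 0 lost. The chain nearest to Cdk5rap2 and Brinp1 (chr4:69585451-70012748) had 23 of 35 gained and 1 lost, and 31 of its members were at least 2-fold lower in formative DKO than in the floxed line. In these 5 chains the DKO median state difference lay between 0.05 and 0.28, where wild type had 1.17 to 1.75.

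The chain with the most losses was the longest in members, at chr13:65448178-66007527 nearest to Gm10324 and to members without a usable gene name. Of its 102 members 49 were lost and 3 gained, and its median amounts were 38.4 and 18.3 reads in wild type and 38.1 and 25.1 in dCD. They were 10.9 and 5.2 in the floxed line and 9.2 and 7.0 in DKO, so both lines without the R1 label were low there in either state. Soft-masked repeats made up a median of 28.95% of its members. The next chain on chromosome 13, near Uqcrb (chr13:66541817-66802562), had 22 of 33 members lost. On chromosome 9 the chains near Gm4668 (chr9:116291723-116551661) and AU023762 (chr9:113041806-113489223) had 19 of 33 and 18 of 51 lost, with 0 gained in both. The chain near Hs6st1, a heparan sulfate sulfotransferase (chr1:35642641-35965104), had 16 of 40 lost and 1 gained. In addition, 1700030C10Rik and 5730507C01Rik on chromosome 12 had 38 of 59 and 38 of 57 members lost. On chromosomes 12 and 13, 18.2% and 12.1% of the members were lost, against 11.7% and 10.7% of all regions there.

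**Figure D2:**
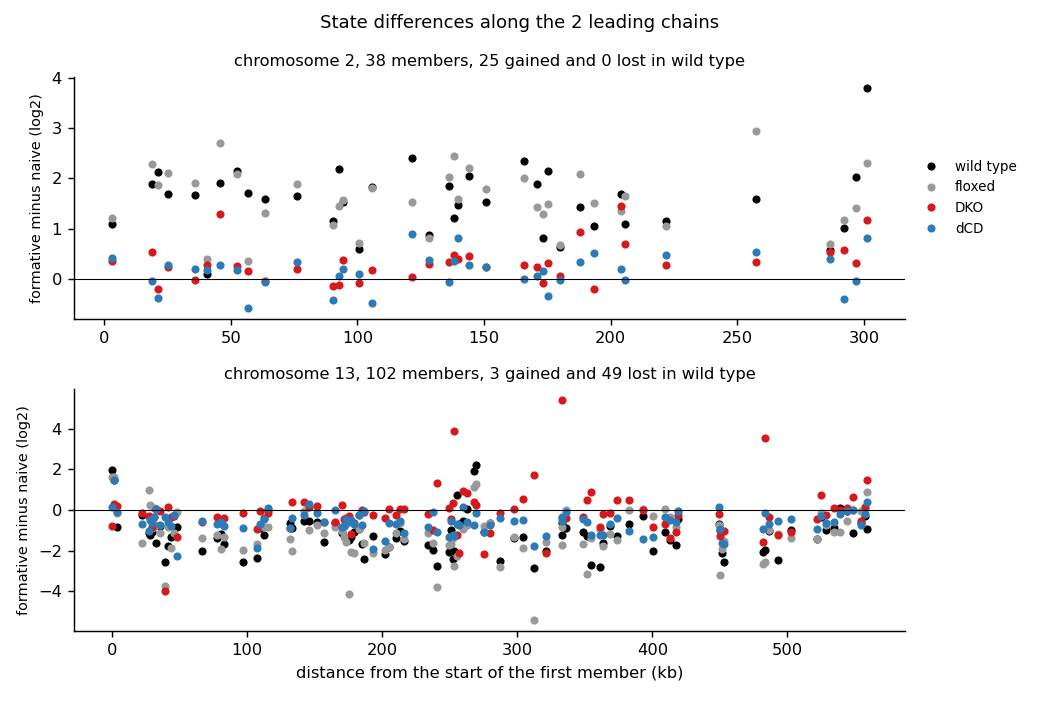
State differences (formative minus naive, log2) of single members against their distance in kb from the first member, for the chains with the most gained members (top, chromosome 2) and the most lost (bottom, chromosome 13), coloured by genotype. In the top panel wild-type and floxed points lie above nearly all DKO and dCD points; in the bottom panel, where floxed and DKO amounts had medians of 5.2 to 10.9 reads, their points spread most widely.

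The gains recurred in the floxed line and were rare in both mutant lines. In the floxed line 3761 members (19.6%) were at least 2-fold higher in the formative state, against 9.33% of all regions, and 1994 (10.4%) were lower, against 10.6%. In DKO 739 members (3.86%) were higher, against 1.2% of all regions, and 417 (2.18%) lower, against 1.25%. In dCD 546 (2.85%) were higher, against 1.37%, and 720 (3.76%) lower, against 2.47%. After subtracting from every group its median level over all regions, the dCD split turned, to 3.7% higher and 3.0% lower, against 1.8% and 1.89% of all regions. The median state difference of the members was 0.13 in the floxed line, 0.01 in DKO and -0.04 in dCD.

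Reading classes of members in lines that did not define them gave the same order. Of the 3710 members gained in wild type, 63.8% were at least 2-fold higher in the floxed line and 7.63% in DKO, with median differences of 1.25 and 0.20. For all regions gained in wild type these shares were 51.1% and 3.81%. Their median amounts were 16 and 42.1 reads in the floxed line, 13.6 and 15.7 in DKO, and 14.3 and 17.4 in dCD. Of the 1577 members lost in wild type, 63.2% were at least 2-fold lower in the floxed line and 3.55% in DKO, with medians of -1.20 and -0.21, and of all regions lost, 50.4% and 1.89%. Of the 3761 members higher in the floxed line, 79.3% were so in wild type and 6.35% in dCD, with medians of 1.59 and 0.18, and of all such regions, 68% and 5.87%. Of the 1994 lower in the floxed line, 60.7% were so in wild type and 11.2% in dCD, with medians of -1.19 and -0.36, and of all such regions, 56.2% and 7.75%. With the threshold at 1.5-fold, the shares in the mutant lines were 23%, 18%, 20.1% and 26.4% in the same order.

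The state at which the mutants stood apart differed between gains and losses. At members gained in wild type, the median difference of DKO from the floxed line was -0.25 in naive and -1.36 in formative cells, and 68.8% were at least 2-fold lower in the formative state, against 54.7% of all gained regions. At members lost in wild type it was -0.89 in naive and 0.17 in formative cells, and 44.7% were at least 2-fold lower in the naive state, against 29.4% of all lost regions. At stable members it was -0.30 and -0.33. For dCD against wild type, members higher in the formative floxed line had medians of 0.04 in naive and -1.41 in formative cells, and those lower had -0.95 and -0.05. So in both mutant lines the members that change with state were lowest against control in the state where the control was high.

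**Figure D3:**
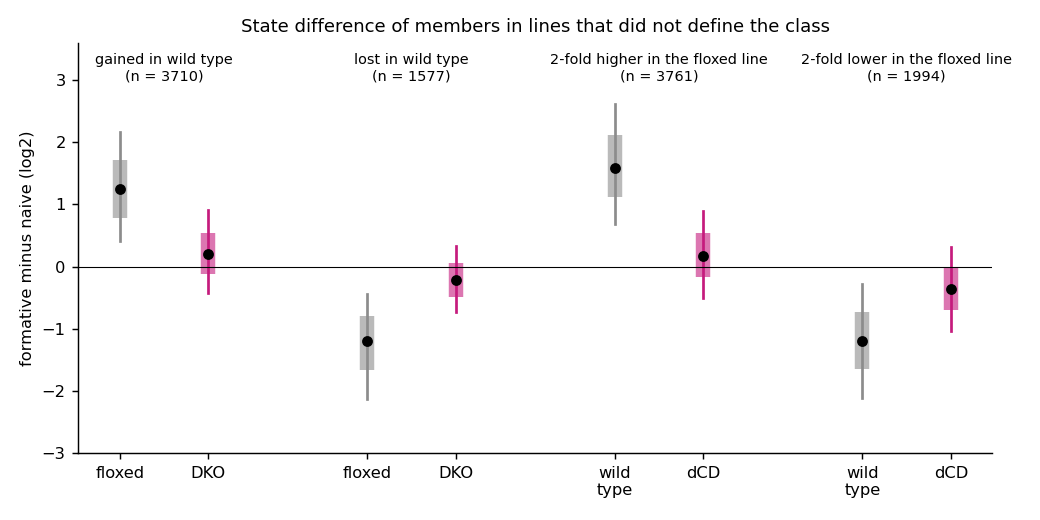
State difference (formative minus naive, log2) of members gained or lost in wild type, read in the floxed line and DKO, and of members 2-fold higher or lower in the floxed line, read in wild type and dCD; dots are medians over members, thick bars the middle 50% and thin bars the 10th to 90th percentile, which are spreads over members and not replicate errors. Grey bars (control lines) lie near 1.2 to 1.6 in size and pink bars (mutants) nearer 0, as the medians of 1.25 and 0.20 for gained members show.

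The members were lower in the mutants than in their controls, more so in the formative state. In naive cells 5090 members (26.6%) were at least 2-fold lower in DKO than in the floxed line, against 15.9% of all regions, and 1158 (6.05%) were higher, against 4.36%. In formative cells 6530 (34.1%) were lower, against 16.7%, and 1263 (6.6%) higher, against 6.47%. For dCD against wild type, 4689 (24.5%) were lower in naive cells, against 13.9%, and 502 (2.62%) higher, against 1.55%. In formative cells 8172 (42.7%) were lower, against 20.1%, and 361 (1.89%) higher, against 2.59%. The median formative difference of the members was -0.56 in DKO and -0.82 in dCD, against -0.13 and -0.29 for all regions. The naive medians were -0.36 and -0.40, against -0.18 and -0.29.

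The levels of whole groups were also shifted. Relative to naive wild type, the median level over all regions was lower by 0.02 in formative wild type, 0.14 and 0.17 in the floxed line, 0.35 and 0.38 in DKO, and 0.35 and 0.42 in dCD; yeast DNA was spiked in, and whether it entered the scaling is not given in the sources used here. With each group centred on its median, DKO was lower than the floxed line at 20.3% of members and higher at 9.67% in naive cells, and lower at 26.9% and higher at 9.7% in formative cells. The shares of all regions were then 10.6% and 8.06%, and 11.8% and 11.2%. Centred likewise, dCD was lower than wild type at 13% and higher at 8.08% in naive cells, and lower at 26.1% and higher at 6.45% in formative cells, where all regions had 5.63% and 6.8%, and 9.69% and 10.8%. The members' medians after centring were -0.14 and -0.35 in naive and formative DKO and -0.05 and -0.42 in dCD. The corresponding medians of all regions were 0.03, 0.08, 0.07 and 0.11. The member medians lay below those of all regions of the same chromosome on 20 of 20 chromosomes for DKO in both states and for formative dCD, and on 19 of 20 for naive dCD. Some whole chromosomes stood low in DKO. Its naive and formative medians over all regions were -0.48 and -0.39 on chromosome 14, where the Olfm4 member lies. They were -0.5 and -0.36 on chromosome 17 and -0.46 and -0.58 on X. Without chromosomes 8, 14, 17 and X, the 20 shares of members higher or lower stayed within 1.5 times.

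Single members held few reads in DKO. The member 114 kb upstream of Cdh20, a classical cadherin (chr1:104653296-104654941), held 45.4 and 44.9 reads in the floxed line and 1.4 and 9.1 in DKO. It held 28.4 and 45.5 in wild type and 12.3 and 16.2 in dCD. The member 887 kb downstream of Fam135b (chr15:70839763-70841195) held 62.2 and 56.7 reads in the floxed line and 3.6 and 6.6 in DKO, and that 140 kb upstream of Fbxl4, an F-box protein (chr4:22216864-22218722), held 54.2 and 52.4 and then 3.3 and 10.8. These 3 members were high in both states of the floxed line and lowest in naive DKO. In formative cells the 4933405O20Rik member (chr7:50883772-50885591) held 65.9 reads in the floxed line and 2.9 in DKO, a difference of -4.23. That of Pla2g4a, a phospholipase (chr1:149092410-149093371), held 34.4 and 0.9 reads, a difference of -5.02 that rests on very few reads in DKO.

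The leading losses in dCD were near other genes. The member 774 kb upstream of Vwc2 (chr11:10339006-10340670), which encodes a secreted BMP antagonist, held 50.3 reads in naive wild type and 4.7 in naive dCD. That 993 kb downstream of Brinp3 (chr1:147489507-147491624) held 35.5 and 2.4 reads in the same groups, and 54.2 and 17.7 in the formative state. In formative cells the member 758 kb downstream of Diaph2, a formin (chrX:130506597-130507929), held 34.5 reads in wild type and 2.2 in dCD. The member 470 kb upstream of Csmd1 (chr8:18005169-18006458) held 35.9 and 2.5 reads. DKO held 7.9 reads for Diaph2 and 12.1 for Csmd1 in formative cells, where the floxed line held 24.4 and 20.3, so the difference of DKO from its own control was under 2-fold at Csmd1. The largest single differences had few reads on the lower side and no replicate check.

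Fewer members were higher in a mutant, and in the formative state these were rich in CpG. Members at least 2-fold higher in formative DKO had a median of 19.2 CpG per kb, and those higher in formative dCD 18.3, against 8.96 over all members. In naive cells the medians were 14.1 for DKO and 8.13 for dCD. The floxed line was low at the members higher in DKO. Those higher in formative DKO had formative medians of 20.0 reads in wild type, 10.2 in the floxed line and 27.8 in DKO. Those higher in naive DKO had naive medians of 17.9, 9.4 and 25.2 reads in the same order. Against wild type, DKO was less raised at these members than against its own control. The members were picked by the difference of DKO from the floxed line, which itself favours low floxed values. No conclusion is therefore drawn from the order of the 2 controls. The member 303 kb upstream of 2410018L13Rik (chr12:23312079-23313554) led both comparisons, with 8.1 reads in the formative floxed line and 66.4 in DKO, and 9.0 in formative wild type and 35.7 in dCD. In naive cells it held 34.5, 43.3, 84.5 and 47.2 reads in wild type, the floxed line, DKO and dCD, so it was lower in the formative state in the controls and stayed high in the mutants. The Akirin2 member (chr4:34438228-34439432) was higher in all 4 mutant comparisons, with 7.3 to 23.5 reads in the 4 control groups and 34.0 to 48.7 in the mutants. Only 5 members (0.0261%, against 0.0128% of all regions) met that condition, those near Akirin2, 1700018B24Rik, 2410018L13Rik (chr12:23217041-23217839), Rap2a and Thoc2, chosen for naming after their values were seen.

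By contrast, 1575 members (8.23%) were at least 2-fold lower in all 4 mutant comparisons, against 2.76% of all regions. They had a median of 4.47 CpG per kb and of 291 kb to the nearest start. Their median amounts were 33.0 and 42.3 reads in wild type and 35.4 and 39.4 in the floxed line, then 9.8 and 11.2 in DKO and 10.7 and 12.2 in dCD. Many members were lower in both DKO and dCD, whose comparisons share no library. In formative cells 5326 members were lower in both, 81.6% of those lower in DKO and 65.2% of those lower in dCD. In naive cells 3084 were lower in both, 60.6% and 65.8%. Between states, 3094 members were lower in DKO in both, 60.8% of the naive and 47.4% of the formative ones, and for dCD 2748, 58.6% and 33.6%. Over all regions the same overlaps were 68.8% and 57.4% between the mutants in formative cells and 49.4% and 56.4% in naive cells, and between states 43.1% and 41% for DKO and 40.1% and 27.8% for dCD. None of these shares was tested against another.

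Distance graded these shares. Of the members at 100 to 200 kb, 200 to 500 kb and beyond 500 kb, 16.1%, 22.0% and 25.3% were gained in wild type, against 9.99% of intergenic regions at 1 to 100 kb. At least 2-fold lower in formative DKO were 26.5%, 38.1% and 53.7%, against 18.8% of the nearer intergenic regions, and in formative dCD 34.9%, 47.4% and 60.8%, against 21.8%. In naive cells the shares were 20.6%, 28.1% and 46.4% for DKO and 20.3%, 26.4% and 35.9% for dCD, against 17.1% and 15.9% of intergenic regions at 1 to 100 kb. Lost members became fewer, at 8.90%, 7.67% and 7.21%. Introns more than 100 kb from a start site, at a median of 155 kb, had 17.6% gained. Of these introns 29.5% were lower in formative DKO and 37.0% in formative dCD. Each of these shares lay above that of members at 100 to 200 kb (median 137 kb) and below that of members at 200 to 500 kb. The naive shares of these introns were 21.5% for DKO and 18.7% for dCD. The shares on either side of the 100 kb limit were close. In the 1816 intergenic regions at 90 to 100 kb and the 1560 members at 100 to 110 kb, 17.5% and 17.1% were at least 2-fold higher in formative wild type, 23.9% and 24.0% lower in formative DKO, and 31.1% and 30.3% lower in formative dCD.

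**Figure D4:**
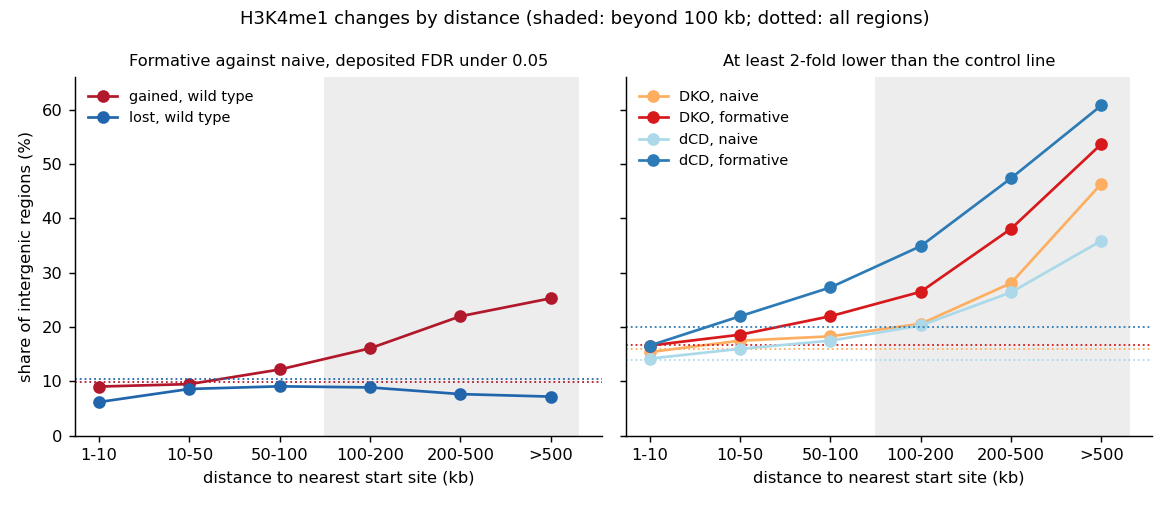
Share of intergenic regions (%) in bands of distance to the nearest start site (kb): left, gained or lost in formative wild type at the deposited FDR; right, at least 2-fold lower in DKO than in the floxed line or in dCD than in wild type. The shaded bands are the members, the dotted lines all regions, and the shares of gains and of lower regions climb across the shaded bands, to 60.8% for formative dCD beyond 500 kb.

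Depth and CpG content moved with distance. From the nearest band of members to the farthest, the median amount in naive wild type was 29.1, 24.6 and 21.4 reads, and the median CpG content 10.2, 8.24 and 5.92 per kb. The share of soft-masked bases had medians of 16.7%, 17.9% and 28.3%. The part of depth and repeats in the distance grade was not tested. CpG content was examined by strata. Of members under 6 CpG per kb (5521), at 6 to 10 (5369), at 10 to 15 (4467) and at 15 or more (3783), 30.6%, 23.6%, 12.9% and 4.73% were gained in wild type. In the same order 64.4%, 40.2%, 16.4% and 2.27% were lower in formative DKO, and 70.2%, 51.8%, 27.8% and 7.27% in formative dCD. The shares of all regions fell with CpG content as well. Gained in wild type were 21.3%, 13%, 7.67% and 4.37% of all regions in these strata. Lower in formative DKO were 46.8%, 26.1%, 10.9% and 1.76%, and in formative dCD 50.1%, 30.6%, 15% and 3.47%.

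Among the CpG-poorest regions the mutant shares rose with distance. CpG content was not matched between the bands inside a stratum, so its part in the distance grade was not tested. Under 6 CpG per kb, 62.2%, 72.5% and 79.1% of the members in the 3 bands were lower in formative dCD, against 50.1% of intergenic regions at 1 to 100 kb and 67.9% of introns beyond 100 kb. The corresponding shares for formative DKO were 56.5%, 65.9% and 74.4%, against 47.8% and 63.6%. Gained in wild type were 27.4%, 32.8% and 31.7% of the members in this stratum, which was not a steady rise. Of intergenic regions at 1 to 100 kb 20% were gained there. Introns beyond 100 kb had 32.8%, the same as the highest band of members. At 15 CpG per kb or more the bands had 7.27%, 7.81% and 5.21% lower for dCD and 2.15%, 2.77% and 1.23% for DKO, with no steady rise by distance. The higher side did rise there. Formative DKO was higher at 20.2%, 24.1% and 28.8%, against 11.9% of intergenic regions at 1 to 100 kb. Formative dCD was higher at 5.03%, 6.27% and 7.36%, against 3.41%. In this stratum the formative floxed line was itself at least 2-fold lower than wild type at 12.5%, 19.9% and 35%.

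**Figure D5:**
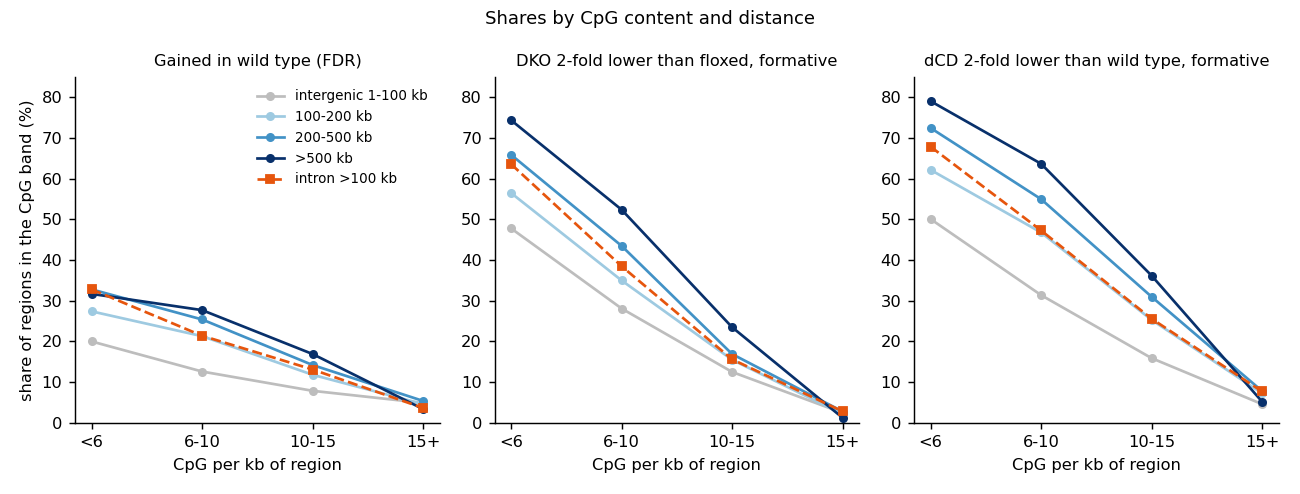
Shares of regions (%) by CpG content per kb, for the 3 distance bands of members (blue), intergenic regions at 1 to 100 kb (grey) and introns beyond 100 kb (orange, dashed): gained in wild type, lower in formative DKO, and lower in formative dCD. All lines fall with CpG content, and under 6 CpG per kb the farthest members stand highest in both mutant panels (74.4% and 79.1%).

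The gained and lost members differed in short motifs of pluripotency factors. Motifs were counted on both strands, and those named here do not contain each other. Per megabase, the POU octamer ATGCAAAT had 117 matches in gained, 79.1 in lost and 93.7 in stable members, and 63.6 in all regions. The ESRRB and NR5A2 motif TCAAGGTCA had 17.2, 54.6 and 31.4, and 35.7 in all regions, and the KLF motif GGGTGTGGC had 9.3, 35.7 and 27.2, and 29.8 in all regions. The SOX motif ACAATGG was most frequent in lost members, with 181, 220 and 181, and 149 in all regions. Among regions of like length, 1 to 2 kb, the POU octamer was in 16.1% of gained and 13% of lost members and in 9.98% of all regions. The ESRRB and NR5A2 motif was in 2.21% and 8.19%, and 4.64% of all, and the KLF motif in 1.08% and 6.19%, and 3.72% of all. The median G+C content was 42.2% in gained and 44.5% in lost members, so base composition moves with these counts. Outside the members, gained and lost regions had 77.5 and 54.3 matches per megabase for POU and 21.1 and 49.4 for ESRRB and NR5A2. For KLF they had 16.6 and 37.3, and for SOX 148 and 154. Each contrast ran the same way there as in the members, that of SOX with a smaller difference. AP-1, as printed for Nudt12, had 197, 193 and 191 matches per megabase in gained, lost and stable members.

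H3K27 acetylation moved in the same direction at the gained members in the authors' deposited table, whose acetylation folds come from samples outside the libraries used here. At members gained in wild type the authors' deposited median fold of H3K27ac, formative against naive, was 1.59 (log2) in wild type and 0.44 in DKO. At lost members the authors' deposited medians were -0.88 and -0.53, and at stable members 0.12 and -0.02. Of the gained members 61.6% had a deposited fold of at least 2 higher in wild type and 36.4% in DKO, against 38.2% and 26.4% of all members and 33% and 21.7% of all regions. At gained intergenic regions 1 to 100 kb from a start site the authors' deposited shares were 56.1% and 33.1%. Comparing DKO with wild type in formative cells, the authors' deposited table gave a median of -0.84 at gained members, -0.52 at all members and -0.20 at all regions. At members at least 2-fold lower for H3K4me1 in formative DKO it was -0.69. The 2 marks were set against different controls and on different scales, so the sizes of their differences were not compared.

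RNA was examined at the nearest genes. The authors' deposited table gives an RNA fold for the nearest gene of 6761 members, which covers 866 genes. Over these genes the authors' deposited median fold, formative against naive, was 0.35 (log2) in wild type and 0.49 in DKO, and 28.9% and 33.6% were at least 2-fold higher. Genes were classed by the members that carry an RNA fold, which are only part of the members near many of them. The 100 genes with 3 or more such members gained and none lost had deposited medians of 0.76 in wild type and 1.02 in DKO, and 45 and 52 of them were at least 2-fold higher. The 38 genes with 3 or more lost members and none gained had deposited medians of -0.43 and -0.14. Of these 38, 12 (31.6%) and 7 (18.4%) were at least 2-fold lower, against 10.4% and 5.43% of the 866 genes. Of the 319 genes with neither, 28.8% and 33.2% were at least 2-fold higher, and 10.7% and 4.39% lower. In the authors' deposited table Sox11 had folds of 3.94 in wild type and 2.57 in DKO, Zic1 2.29 and 3.31, and Rspo3, a secreted WNT agonist, 2.35 and 1.03. The phospholipid flippase Atp10a had deposited folds of 5.05 and 2.91, and Plpp3, a lipid phosphatase with 14 lost members, -0.76 and -1.82. These 5 genes were chosen as examples after their values were seen, so they do not stand for their classes. Among the 100 genes, those with the most gained members were Cdk5rap2 (22), Nr2f1 (15) and Cenpw (13). The authors' deposited folds in wild type and DKO were 0.05 and -0.22 for Cdk5rap2, 0.97 and 1.26 for Nr2f1, and -0.25 and -0.11 for Cenpw.

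The control lines themselves differed at some members. In naive cells 1478 members (7.72%) were at least 2-fold lower in the floxed line than in wild type, against 4.38% of all regions, and 377 (1.97%) were higher, against 0.864%. In formative cells 1768 (9.24%) were lower, against 3.83%, and 118 (0.617%) higher, against 0.526%. Centring each group on its median changed the naive split to 5.72% lower and 3.22% higher. The lowest were near 0 in the lines without the R1 label. The 2410141K09Rik member (chr13:66298660-66300600) held 122.6 and 53.2 reads in wild type and 98.5 and 64.2 in dCD, but 1.2 and 1.2 in the floxed line and 2.8 and 1.1 in DKO. The member 321 kb downstream of Nucb2 (chr7:116824468-116825864) held 46.1 and 36.9 in wild type, 66.6 and 51.7 in dCD, 0.8 and 0.7 in the floxed line, and 3.2 and 0.7 in DKO. On chromosome 8, where 1724 members lie, the median difference of the floxed line from wild type was -0.45 in naive and -0.43 in formative members. The 4933433F19Rik, Sall1 and Csmd1 members above lie on this chromosome. Each mutant was compared there with its own control, and these comparisons were shifted too. Over all regions of chromosome 8, dCD minus wild type had medians of -0.57 in naive and -0.45 in formative cells. Over all chromosomes both were -0.29. DKO minus the floxed line had 0.0 and 0.02 on chromosome 8, against -0.18 and -0.13. The part of these shifts in the values of single members was not tested.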

How the data were processed

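The authors deposited 1 table of regions with 1 pooled log2 level column per group, made with Trim Galore, Bowtie2, SEACR, DiffBind and deepTools on mm10 per the submitters' processing notes, which give no versions; how these tools were set is not given in the sources used here. The authors' deposited p-values and FDR, and their log2 folds of H3K4me1, H3K27ac and RNA, were used as given; 14 columns of per-sample values of other measures were not used. The levels fit log2(1 + reads scaled by the squared region width), with an offset of 22.25 for both wild-type columns, so normalized reads were recovered from them. A level therefore compares groups within a region, not regions.

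Differences were taken between pooled levels and counted at 2-fold, without a test, over all 186824 regions (2 of 186826 lacked levels). Named members were the 5 highest and 5 lowest of each comparison with at least 32 reads in the higher group (1 per nearest gene; deposited FDR under 0.05 for the wild-type state difference), up to 3 per gene list and comparison, and the 5 chains with the most gains and losses. The members, lists and rules were chosen with earlier results of these data known. Table coordinates lie within GRCm38; negative distances were upstream for 18104 of 18278 members checked. For 104 members no gene name was usable. Alternatives covered scaling, thresholds, read minimum, distance, width, chromosomes and chain gap. The scripts, in Python 3.11.15 with pandas 2.3.3, numpy 2.4.6 and matplotlib 3.10.9, were tested on simulated data. Some named members are not reported here.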

Additional observations from a re-analysis of the deposited data

Results flagged for a closer look

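At 13 named members the state difference ran at least 2-fold one way in a control line and at least 2-fold the other way in the mutant, which was not tested. The values below are the mutant's state difference minus the control's (log2). For DKO against the floxed line, the Hacd1 member (chr2:13949744-13950967) gave 3.17: it held 13.5 and 4.6 reads in naive and formative floxed cells and 11.4 and 37.5 in DKO. The Klf4 member (chr4:56049947-56050601) ran opposite in both mutants, with -4.75 for DKO and -3.51 for dCD; it held 4.9 and 20.1 reads in wild type, 3.8 and 24.5 in the floxed line, 8.9 and 2.0 in DKO, and 8.7 and 3.0 in dCD.

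For dCD against wild type, the 1810013L24Rik member gave 3.89 and the Nkx6-1 member 2.69, where wild type was lower and dCD higher in the formative state. Wild type was higher and dCD lower at the members of Lrp1b (-4.6), Pcdh20 (-4.14), Dkk2 (-4.1), Msl3l2 (-4.02), Fscb (-3.3), Cdh11 (-3.18), Nr5a2 (-2.47), Dhx35 (-2.46) and Mycn (-2.34). Every one of the dCD members in this paragraph held under 10 reads in dCD in at least 1 state. Over all members, 111 (0.58%) ran opposite in the floxed line and DKO and 119 (0.622%) in wild type and dCD, against 0.209% and 0.211% of all regions.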

How the results depend on the processing

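No paired analysis was possible because the table holds 1 pooled column per group, and for the same reason no replicate could be left out. At a 1.5-fold threshold the shares of members higher and lower were 32.1% and 20.9% for the floxed state difference, 12.2% and 9.86% for DKO, 11.3% and 14.4% for dCD, and 19.4% were lower in wild type. At that threshold DKO was higher than the floxed line at 14.7% (naive) and 13.9% (formative) and lower at 41.2% (naive), dCD was higher than wild type at 9.54% and 6.8% and lower at 41.3% (naive), and the floxed line was higher than wild type at 8.95% and 3.4% and lower at 19.7% and 22.6%. The shares of state-changed members that also changed in a mutant were then 23%, 18%, 20.1% and 26.4%. With at least 32 reads in the higher group, 0.686% were higher and 0.791% lower in the DKO state difference and 0.606% higher in that of dCD, dCD was higher than naive wild type at 0.968%, and the floxed line was higher than wild type at 1.01% and 0.376% and lower at 5.94% (formative). Centring and quantile scaling gave 9.67% and 10.3% higher in naive DKO, 8.08% and 7.38% higher and 13% and 15.5% lower in naive dCD, 6.45% and 4.61% higher and 26.1% and 27.1% lower in formative dCD, and, for the floxed line against wild type, 3.22% and 3.64% higher in naive and 1.09% and 0.935% in formative cells. Beyond 250 kb, 6.28% were higher in the DKO state difference, and at FDR 0.01, 12% were gained and 4.45% lost in wild type. A change of threshold or FDR limit moves a share by its own construction, and the causes of the other moves were not tested. The read minimum took the share higher in the DKO state difference from 3.86% to 0.686%, and in that of dCD from 2.85% to 0.606%. Centring took the share lower in formative dCD from 42.7% to 26.1%. The other 195 values of these shares stayed within 1.5 times, among them those for members without a GENCODE coding start within 100 kb and those without chromosomes 12 and 13, which were chosen after seeing the data. Of 367 values of named members none reversed, and 13, 15 and 5 moved under centring, quantile scaling and log2 of reads plus 1. Low reads limit single members: few reads on the lower side leave its fold imprecise, and the pooled columns give no error.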

Other observations

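A pair of members, both on chromosome 13, held at most 3 reads in all 4 floxed and DKO groups and at least 16 in all 4 wild-type and dCD groups, and the reverse pattern was found at 0 members. They were singled out after their values were seen. Besides the 2410141K09Rik member described above, the member at chr13:65780740-65781248, nearest to Gm10324, held 26.4 and 17.1 reads in naive and formative wild type, 36.4 and 24.8 in dCD, 1.4 and 0.4 in the floxed line, and 0.0 and 2.1 in DKO. Over all regions the pattern was found 3 times. The line label moves with it, and its part was not tested.

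Other motifs also differed between classes of members. The GATA motif AGATAAGA had 67.2 matches per megabase in gained and 44.2 in lost members, beside 44.2 in all regions. The ZIC motif CCTGCTGGG had 31 and 20.9, beside 32.7. The OTX motif GGGATTA was less frequent over the members than over all regions, with 122 and 196 matches per megabase, and no test was made of these counts.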
